A study of Mus musculus with 6 samples.

Results

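The Dlk1-Dio3 imprinted locus of mouse chromosome 12 was described in lungs of mice with EGFR-driven lung cancer on a high-fat or a regular diet. Its members are the maternally expressed noncoding RNAs Meg3, Rian and Mirg and the paternally expressed genes Dlk1, Rtl1 and Dio3. Every probe set that the platform's annotation gives to exactly 1 of them was taken. That gave 4 of the 6 genes and 19 of 45037 probe sets, with 11 for Meg3, 4 for Rian, 2 for Mirg and 2 for Dlk1. Rtl1 and Dio3 had no probe set of their own and were not analysed here, so the paternal side rests on Dlk1 alone. The locus was chosen by its difference between these same 6 arrays, so all differences of its members, and whether they pass the fit's threshold, are given as a description and not as evidence for the choice.

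LC-HFD and LC-RD lungs came from the same transgenic line, on a C57BL/6 background, in which doxycycline turns on a mutant human EGFR through rtTA under the airway-epithelial CC10 promoter. Both groups therefore carried both transgenes and received doxycycline in food (625 ppm) and drinking water (2 mg/ml, with 1% sucrose), and they differed in diet. LC-HFD mice (n = 3) ate a diet with 60% of its energy from fat and LC-RD mice (n = 3) a regular diet. The paper reports heavier lungs, a larger tumor burden and more mRNA of a proliferation marker in LC-HFD than in LC-RD mice. Tumor load and diet therefore cannot be told apart in these lungs. Per the methods the mice were male and 6 to 8 weeks old at the start, and ate their diet for 2 weeks before 8 weeks with doxycycline. Per the labels the mice were fed their diet up to week 8 and doxycycline for another 7 weeks. Whole lung RNA of each mouse was hybridized to 1 Affymetrix array, which holds one or more sets of short probes per gene, and the values are log2 after GCRMA (a background correction based on probe sequence, with normalization across arrays). Lungs without the induced EGFR were not analysed here.

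In mammals an imprinted gene is transcribed mainly from 1 parental copy. In the Dlk1-Dio3 locus a stretch of DNA upstream of Meg3 is methylated on the paternal copy, where Dlk1, Rtl1 and Dio3 are transcribed, and unmethylated on the maternal copy, where Meg3, Rian, Mirg and a large cluster of small RNAs are transcribed in 1 direction. The locus is highly active in the embryo and placenta and less active in many tissues after birth. The array cannot tell the parental copies apart, and in bulk lung fewer cells of a type and less RNA per cell cannot be told apart.

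To show where transcription of both sides starts, the RefSeq windows around the Meg3 and Dlk1 start sites are printed 5′ to 3′, each with 250 bases before and 50 after the start (GRCm38.p6; 5 of the 6 members matched an entry). RefSeq has 2 Meg3 windows, of which the first is printed. The printed Meg3 window is chr12:109540746-109541045 on the plus strand and the Dlk1 window chr12:109452573-109452872 on the plus strand. Capitals mark matches on either strand to TGACGTCA (the cAMP response element), TATAAA (a core promoter element), CCAAT (bound by NF-Y), GGGCGG (GC box), CACGTG (E-box) or TGCCGC (the hexamer bound by ZFP57 when methylated).
Meg3: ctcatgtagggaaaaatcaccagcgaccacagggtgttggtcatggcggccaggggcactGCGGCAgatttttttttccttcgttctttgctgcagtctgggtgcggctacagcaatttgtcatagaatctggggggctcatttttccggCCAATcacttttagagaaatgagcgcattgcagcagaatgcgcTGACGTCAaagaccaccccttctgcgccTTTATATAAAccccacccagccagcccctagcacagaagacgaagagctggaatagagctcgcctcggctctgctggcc
Dlk1: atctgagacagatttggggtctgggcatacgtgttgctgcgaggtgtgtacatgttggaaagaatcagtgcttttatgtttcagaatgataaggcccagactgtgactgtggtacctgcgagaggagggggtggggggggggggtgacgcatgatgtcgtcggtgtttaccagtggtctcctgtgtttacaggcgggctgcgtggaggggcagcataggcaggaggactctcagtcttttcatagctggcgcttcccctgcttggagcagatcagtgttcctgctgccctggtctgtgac
The first Meg3 window held 1 cAMP response element, starting 57 bases before the start site, 1 CCAAT, 1 ZFP57 hexamer on the minus strand, and 2 TATAAA matches on opposite strands that overlap each other. TGACGTCA was present in 1.79% of all 32851 promoter windows of the same length, TATAAA in 13.6%, CCAAT in 37.4% and TGCCGC in 11.6%. The Dlk1 window and the second Meg3 window (chr12:109545148-109545447, plus strand) held none of the 6 motifs. Of the other shares, GGGCGG stood at 35.7% and CACGTG at 7.15%. The first Meg3 window held 13 CpG, the second 1 and the Dlk1 window 9, beside a median of 7 over all windows.

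Mirg is a host transcript of microRNAs, which silence messages that match their seed (bases 2 to 8). Between Meg3 and Dio3 RefSeq places 58 microRNA hairpins with 114 mature sequences. Of these hairpins 54 lie on the plus strand, as Meg3, Rian and Mirg do, and 10 lie within the Mirg gene, 3 within Rian and 1 within Meg3. The other 44 lie within none of these 3 genes. The mature sequences of different hairpins share 9 seeds. The sets with a member inside Mirg are printed to show what this transcript carries, with the seed in capitals (GRCm38.p6, chromosome 12, plus strand, in RNA letters).
miR-453: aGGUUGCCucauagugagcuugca
miR-496a-5p: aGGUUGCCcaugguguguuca
miR-410-5p: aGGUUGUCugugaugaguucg
miR-494-5p: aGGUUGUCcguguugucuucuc
MiR-453 and miR-496a-5p both lie inside Mirg and have the seed GGUUGCC. MiR-410-5p lies inside Mirg and miR-494-5p outside it, and they share the seed GGUUGUC. The array measured Meg3, Rian and Mirg, which hold only a part of these hairpins. It did not measure the mature microRNAs, whose levels are not known from these data.

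All 4 measured genes of the locus had higher values in LC-HFD lungs than in LC-RD lungs, on both parental sides. All 19 probe sets had a higher mean in LC-HFD, by 0.31 to 2.25 log2 units. Of the 19, 18 passed an adjusted p under 0.05 as higher, 13 also passed a change over 2-fold, and 18 had every LC-HFD array above every LC-RD array. Over all 45037 probe sets these shares were 11.3%, 0.671% and 22.0%. The members were chosen on this contrast, so nothing is read from their counts. The median difference of all probe sets was 0.04.

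**Figure D1:**
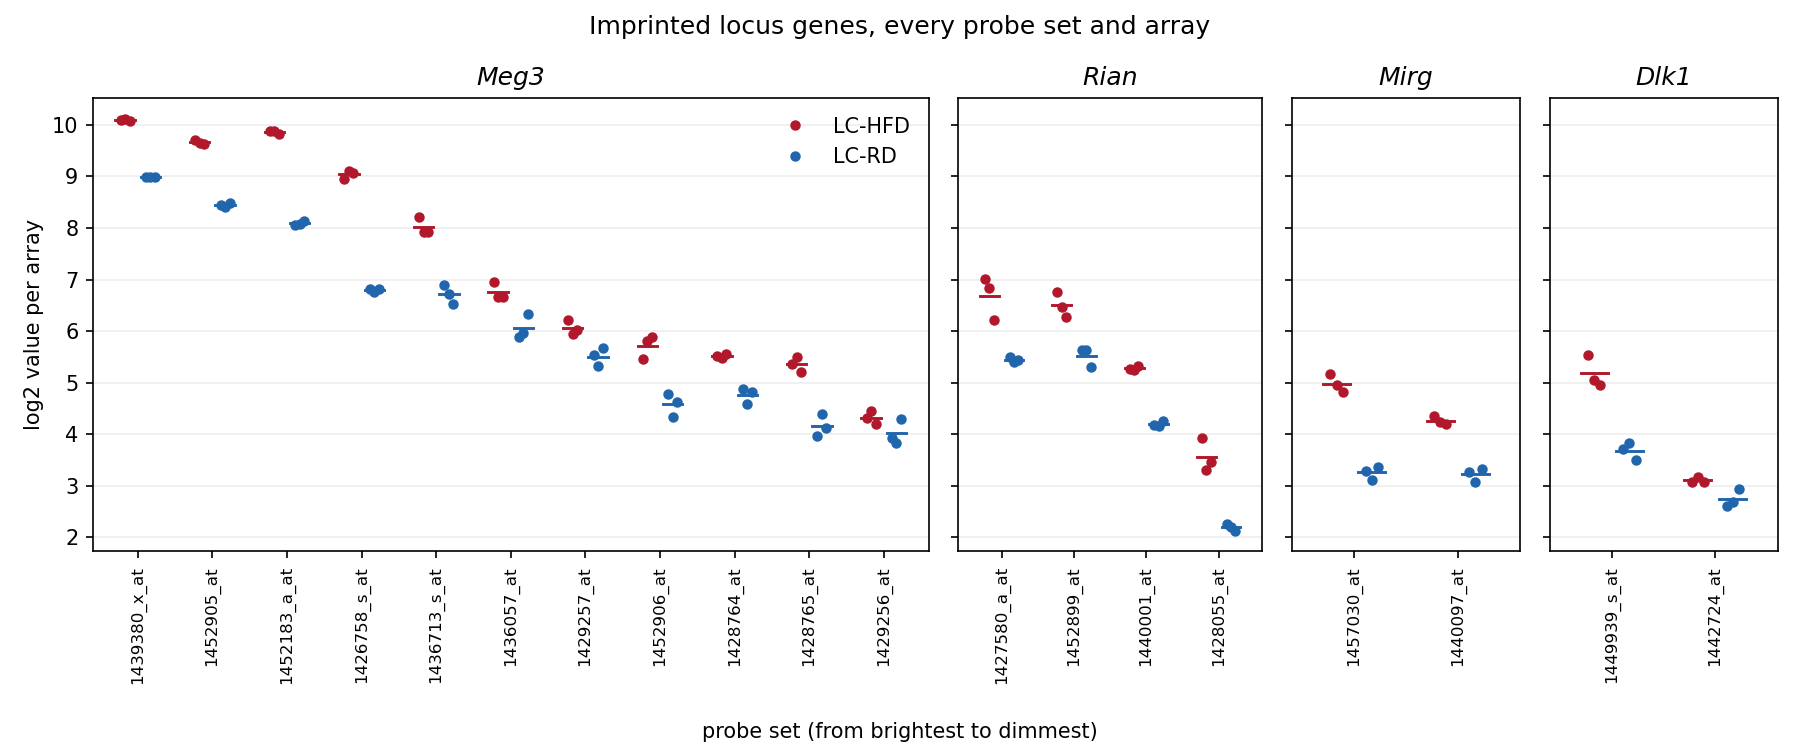
Log2 value of every array (points, 3 LC-HFD in red on the left and 3 LC-RD in blue on the right of each pair) for the 19 probe sets of Meg3, Rian, Mirg and Dlk1, with the group mean as a bar. The groups overlap only for Meg3 1429256_at, the rightmost Meg3 probe set.

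Meg3, a long noncoding RNA that has been described as a tumor suppressor in human cells, had the largest difference of the locus on probe set 1426758_s_at. It stood at 8.95, 9.11 and 9.07 in LC-HFD lungs, against 6.82, 6.75 and 6.82 in LC-RD lungs. The difference was 2.25 (SE 0.0766), a 4.74-fold higher level in LC-HFD and the 10th largest increase of the array. The gap between the groups, 2.13 from the lowest LC-HFD array to the highest LC-RD array, was larger than the SD within a group (0.0842 in LC-HFD and 0.0384 in LC-RD). Probe set 1452183_a_at, built from the same sequence record, read 9.88, 9.88 and 9.82 in LC-HFD and 8.06, 8.08 and 8.13 in LC-RD. Its difference of 1.77 (3.41-fold) was the 44th largest increase.

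The Meg3 probe sets did not give a single size of change. Probe set 1439380_x_at, the brightest, stood at 10.09, 10.12 and 10.07 in LC-HFD lungs and at 8.99, 8.98 and 8.99 in LC-RD lungs, a difference of 1.11 (SE 0.0665, 2.15-fold). Its suffix marks probes that can also bind other transcripts. The suffix _s_at, on Meg3 1426758_s_at and 1436713_s_at and on Dlk1 1449939_s_at, marks probes that several transcripts share. Probe set 1452905_at read 9.70, 9.65 and 9.63 in LC-HFD and 8.45, 8.41 and 8.49 in LC-RD, 2.31-fold higher in LC-HFD. Both separated the groups by more than 1 log2 unit, with every SD under 0.05.

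Probe set 1436713_s_at read 8.21, 7.93 and 7.93 in LC-HFD, against 6.90, 6.71 and 6.52 in LC-RD, a difference of 1.31. Probe set 1428765_at read 5.36 ± 0.143 in LC-HFD, against 4.16 ± 0.222 in LC-RD (SD, n = 3 each), and differed by 1.20. Probe set 1452906_at read 5.71 ± 0.228 in LC-HFD, against 4.58 ± 0.223 in LC-RD, and differed by 1.13. The remaining Meg3 probe sets moved less and stayed under 2-fold. Probe set 1428764_at differed by 0.77, 1436057_at by 0.70 and 1429257_at by 0.56, without overlap between the groups. Probe set 1436057_at no longer passed when LC-RD replicate 1 (difference 0.61) or LC-RD replicate 2 (0.65) was left out.

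The exception among the 19 was Meg3 1429256_at. It stood at 4.31, 4.46 and 4.20 in LC-HFD lungs and at 3.92, 3.83 and 4.30 in LC-RD lungs, where LC-RD replicate 3 lay 0.10 above the lowest LC-HFD array. The difference of 0.31 did not pass, and without LC-RD replicate 3 it was 0.45 and passed. Probe sets built from 1 sequence record differed by 1.77 and 2.25 for one record, by 0.77 to 1.21 for another with 3 probe sets and by 0.31 and 0.56 for the pair that holds this exception. Across the 11 Meg3 probe sets the difference went with the mean level (Pearson's r = 0.59, Spearman's rho = 0.54), as a description over probe sets that share the same 6 arrays. RefSeq lists 3 Meg3 transcripts, and which of them each probe set reads was not tested.

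**Figure D2:**
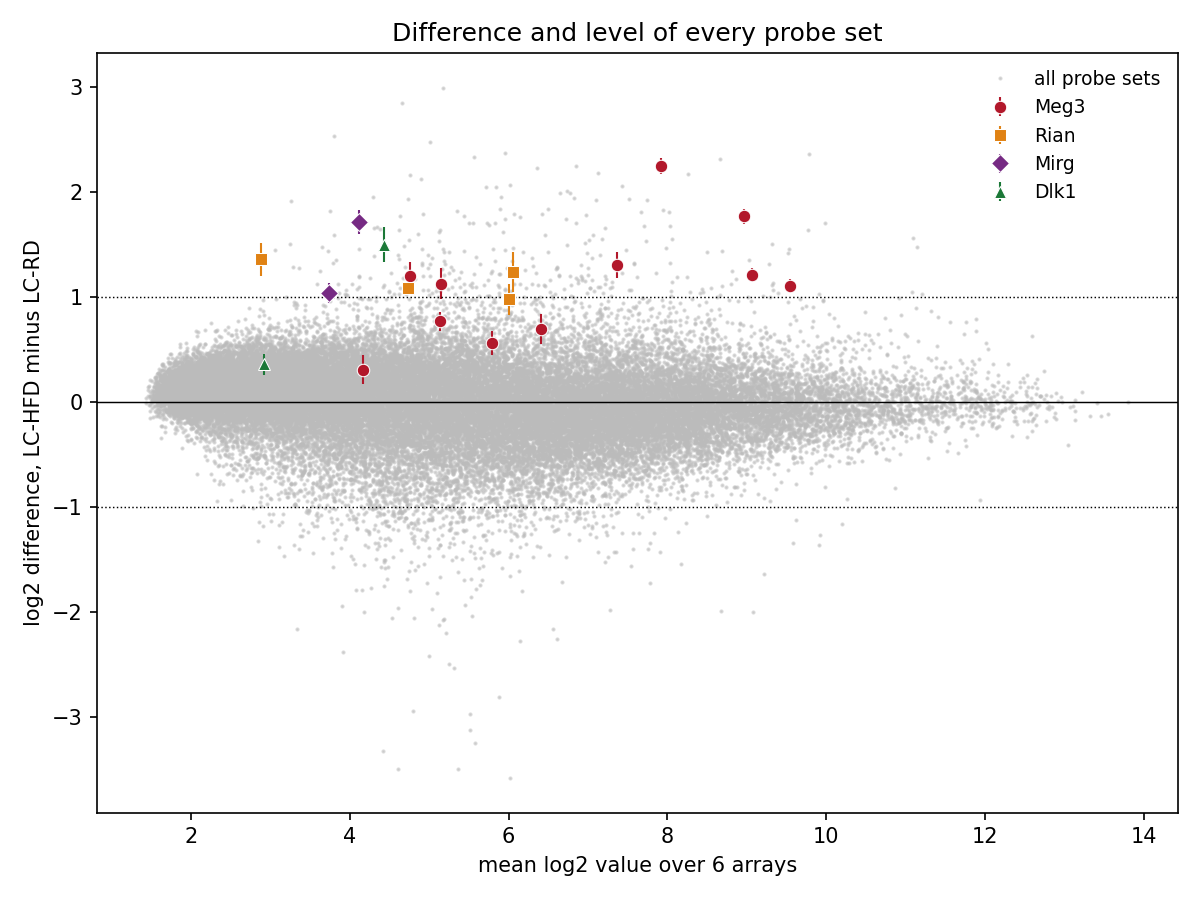
Log2 difference (LC-HFD minus LC-RD) against the mean log2 value over 6 arrays for all 45037 probe sets (gray), with the members in color and their SE as bars. Dotted lines mark 2-fold. Of the 19 members, 13 lie above the upper line and none lies below 0.

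Rian, the host of a cluster of small nucleolar RNAs, was higher in LC-HFD on all 4 of its probe sets, by 0.98 to 1.36. Its brightest, 1427580_a_at, stood at 7.01, 6.83 and 6.21 in LC-HFD lungs, against 5.50, 5.41 and 5.43 in LC-RD lungs. The LC-HFD mice were spread out (SD 0.423) and the LC-RD mice nearly identical (SD 0.0441). The difference was 1.24 (SE 0.194, 2.36-fold).
Probe set 1452899_at read 6.76, 6.47 and 6.28 in LC-HFD and 5.64, 5.63 and 5.30 in LC-RD, which at 1.97-fold was just short of 2-fold. Probe set 1440001_at had the tightest groups of the gene, with 5.26, 5.24 and 5.33 in LC-HFD and 4.17, 4.16 and 4.25 in LC-RD (2.12-fold). Probe set 1428055_at stood at 3.93, 3.30 and 3.46 in LC-HFD and at 2.26, 2.21 and 2.13 in LC-RD, a difference of 1.36. The groups were apart on each of the 4, by 0.64 to 1.04, but the last probe set lay below the median of every array (4.79 to 4.84) in both groups.

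Mirg, the microRNA host, was higher in LC-HFD on both probe sets. Probe set 1457030_at stood at 5.17, 4.95 and 4.82 in LC-HFD lungs, against 3.29, 3.12 and 3.37 in LC-RD lungs, a difference of 1.72 (SE 0.114, 3.29-fold). Probe set 1440097_at stood at 4.35, 4.23 and 4.20 in LC-HFD lungs, against 3.26, 3.08 and 3.32 in LC-RD lungs, and at 2.06-fold was just over 2-fold. LC-RD values of both lay well under the array medians, and how far they stood above the array's background is not known, since detection calls were not used here.

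Dlk1 encodes a transmembrane protein of the Notch ligand family that is made by preadipocytes and keeps them from becoming fat cells. Probe set 1449939_s_at stood at 5.54, 5.05 and 4.96 in LC-HFD lungs, against 3.71, 3.83 and 3.51 in LC-RD lungs. The difference was 1.50 (SE 0.164, 2.82-fold), and the lowest LC-HFD array was 1.13 above the highest LC-RD array. Probe set 1442724_at differed much less, with 3.07, 3.17 and 3.07 in LC-HFD and 2.60, 2.69 and 2.93 in LC-RD (0.36, 1.29-fold). The groups were 0.14 apart there, and its call was lost in 10 of 13 alternatives, among them the omission of any LC-HFD array and of LC-RD replicate 1 or 2.

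Averaged over its probe sets, Mirg differed by 1.38 (pooled SD 0.128), Rian by 1.17 (0.158), Meg3 by 1.12 (0.0506) and Dlk1 by 0.93 (0.112). Rian and Meg3 were closer to each other than the SD of Rian. The mean of the 3 noncoding RNAs stood at 5.94, 5.79 and 5.70 in LC-HFD lungs and at 4.62, 4.52 and 4.63 in LC-RD lungs. The Dlk1 mean stood at 4.30, 4.11 and 4.01 in LC-HFD lungs and at 3.15, 3.26 and 3.22 in LC-RD lungs. The noncoding RNAs thus differed by 1.22 and Dlk1 by 0.93. The gap of 0.29 (pooled SD 0.0768) turned to -0.14 when each gene was read from its brightest probe set and to -0.18 when probe sets under a mean log2 value of 4 were left out, so these data give no order between the maternal and the paternal side.

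Within the LC-HFD group, replicate 1 was the highest mouse for 10 of the 19 member probe sets. These were 3 of 4 for Rian, 2 of 2 for Mirg and 1 of 2 for Dlk1, but 4 of 11 for Meg3, where replicate 2 was the highest for 5, while over all probe sets it was the highest for 34.5%. In the LC-RD group, replicate 3 was the highest for 10 of the 19 and for 33.5% of all probe sets, and replicate 2 for 2 of the 19 and 35.5% of all. The spread of the members was like that of other probe sets in LC-HFD (median SD 0.137 for both) and wider in LC-RD (0.144 for the members and 0.0944 for all).

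The genes around the locus were compared in their order on the chromosome, since they share the region but are not known to be governed by its imprint. The 8 measured genes just before Dlk1 differed by -0.29 to 0.30, and 1 of them passed the test. This was Wars, a transfer RNA synthetase, at 8.25 ± 0.0838 in LC-HFD and 7.95 ± 0.0571 in LC-RD (SD, n = 3 each; limma adjusted p = 0.0312), and its call was lost without any 1 of 5 of the 6 arrays, LC-HFD replicate 3 being the other. The 9 measured genes listed after Mirg other than Dio3os differed by -0.58 to 0.42, with 0 higher and 2 lower. Those were Ppp2r5c, a regulatory subunit of protein phosphatase 2A (-0.58, limma adjusted p = 0.0111, with its 7 probe sets over -0.61 to 0.23), and Wdr20 (-0.58, limma adjusted p = 0.00751). Wider lists of neighbours, which reach further out, gave 2 higher and 1 lower of 12 genes before the locus (median -0.07) and 2 higher and 4 lower of 13 after it (median -0.11). Beside Wars, Ppp2r5c and Wdr20 they held calls for Zfp839 (-0.72), Rcor1 (0.46, with 3 probe sets over -0.14 to 0.46) and Eml1 (-0.40, lost without LC-HFD replicate 1 or 2 or LC-RD replicate 1 or 2). The other calls were Hhipl1 (0.29, lost without LC-HFD replicate 2 or 3 or LC-RD replicate 1 or 2), Cinp (-0.35) and Wdr20rt (0.25). Over all genes, read from their brightest probe sets, 11.1% passed as higher and 16.2% as lower. One of the 9 genes after Mirg, 3110009F21Rik, lies inside the locus and stood at 2.05 ± 0.317 in LC-HFD, against 1.91 ± 0.117 in LC-RD.

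Dio3os, a noncoding RNA transcribed opposite to Dio3, was also measured. It stood at 4.81, 5.13 and 5.03 in LC-HFD lungs, against 4.45, 4.47 and 4.48 in LC-RD lungs. The difference of 0.52 (SE 0.0968, limma adjusted p = 0.00906) was smaller than that of any of the 4 members on its brightest probe set. Dio3 itself, the enzyme that inactivates thyroid hormone, was not analysed here.

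**Figure D3:**
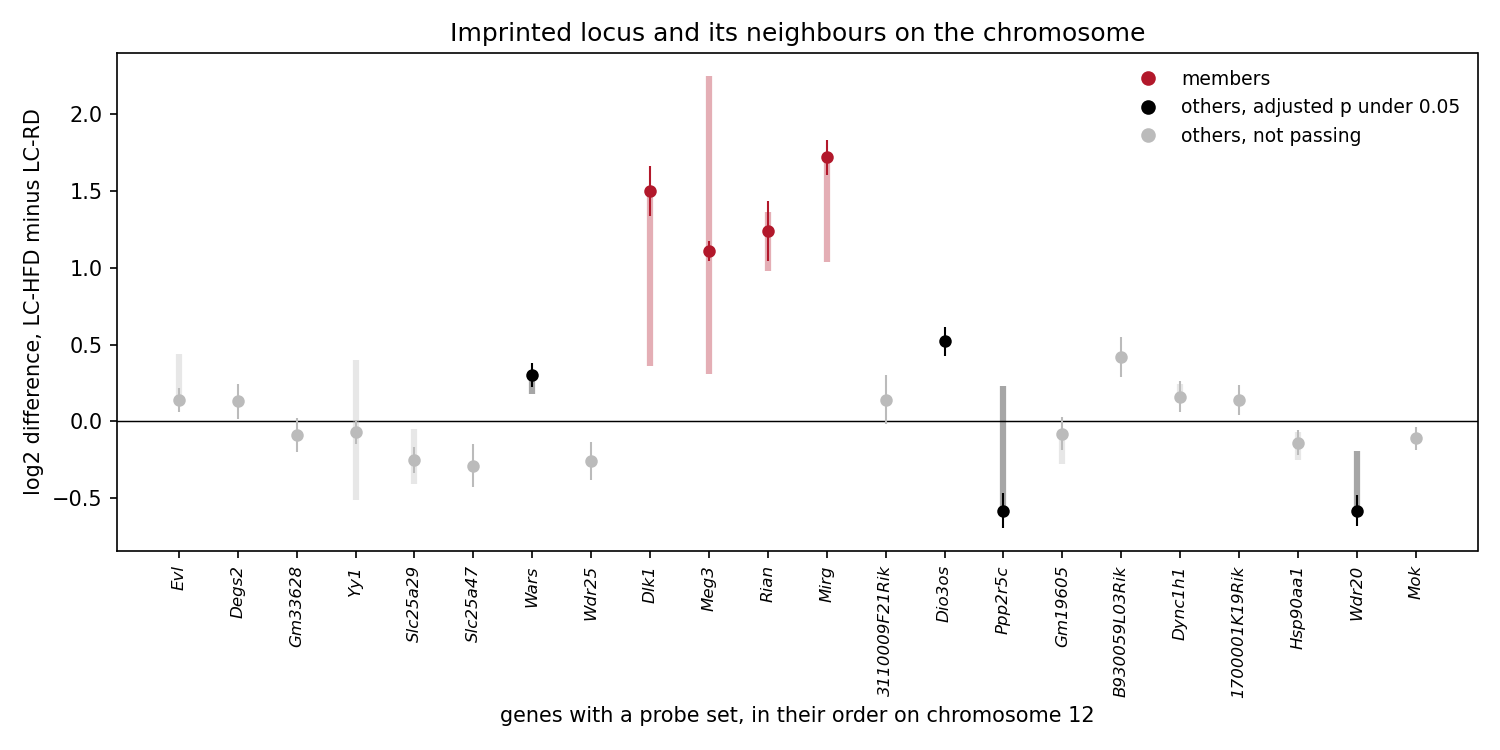
Log2 difference (LC-HFD minus LC-RD) of the measured genes in their order on chromosome 12, read from the brightest probe set of each gene (points, with SE) and with the range over its probe sets (broad bars). The 4 members lie between 1.11 and 1.72 and the 18 others between -0.58 and 0.52.

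Lists of genes tied to the members' roles were read from the brightest probe set of each gene, for which 11.1% of all 18193 genes passed as higher and 16.2% as lower, with a median of 0.02. Over the 177 genes of all such lists 28 were higher and 32 lower, with a median of 0.05. Other imprinted genes did not move as a body. Of 14 maternally expressed genes elsewhere in the genome 1 was higher (Igf2r, the receptor that clears IGF2, 0.40) and 2 were lower (Copg2 and Slc22a18, -0.34 each), with a median of -0.01. Copg2 lost its call without any LC-HFD array or LC-RD replicate 1 or 2, and Slc22a18, whose other probe set differed by 0.17, without LC-HFD replicate 2 or any LC-RD array. Of 21 paternally expressed genes 3 were higher and 4 lower, with a median of 0.06.

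The exception in size among imprinted genes was Nnat (neuronatin, a small membrane protein of the endoplasmic reticulum). It stood at 8.22 ± 0.0642 in LC-HFD lungs, against 6.03 ± 0.0701 in LC-RD lungs (SD, n = 3 each), a difference of 2.19 (limma adjusted p = 3.59e-05). Peg3, a zinc finger protein, was lower in LC-HFD by its brightest probe set (-0.78, limma adjusted p = 0.0091), with its 5 probe sets ranging from -0.78 to 0.21. Peg3 lost its call under the methods' t-test and with the 3′ minus 5′ covariate. Igf2 (0.06) and Cdkn1c (0.02) were near 0 and did not pass. Airn, a noncoding RNA antisense to Igf2r, differed by 0.71 on its brightest probe set but by -0.97 to 1.09 over its 5.

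Among 21 genes of DNA methylation and imprint control 4 were higher and 6 lower, with a median of -0.11. Zfp57, which encodes the zinc finger protein that keeps imprinted regions methylated, had the largest difference. It stood at 6.95, 6.70 and 6.57 in LC-HFD lungs, against 4.85, 4.60 and 4.61 in LC-RD lungs, a difference of 2.05 (SE 0.121, limma adjusted p = 0.000193). No LC-HFD array came within 1 log2 unit of an LC-RD array. Tet3, a methylcytosine oxidase (0.80), Dnmt3l, a cofactor of de novo methylation (0.60), and the methyltransferase Dnmt3a (0.40) were also higher in LC-HFD, though the 5 probe sets of Dnmt3a ranged over -0.24 to 0.51. Uhrf1, which brings Dnmt1 to newly copied DNA (-0.55), Smchd1, a chromatin protein of the inactive X chromosome (-0.54, and 0.06 on its other probe set), and Ezh2, a histone methyltransferase (-0.53, lost without any 1 LC-RD array), were lower. Aff3 was lower on its brightest probe set (-0.83) and differed by 0.82 on its other. Ctcf, an insulator protein, was lower (-0.35, and 0.32 on its other probe set), but lost its call without any 1 LC-RD array. Trim28 (0.12), the partner of Zfp57, and Dnmt1 (-0.21) did not pass. DNA methylation itself was not measured.

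Of 27 Notch pathway genes, the pathway that Dlk1 belongs to by structure, 4 were higher and 4 lower, with a median of -0.04. Lfng, a glycosyltransferase that modifies Notch receptors, stood at 7.25 ± 0.166 in LC-HFD and 6.04 ± 0.129 in LC-RD (SD, n = 3 each; 1.21, limma adjusted p = 0.000812), and Dtx3 was higher by 0.95. Jag2 was higher by 0.35. The Notch targets Nrarp (-0.77, limma adjusted p = 0.00795) and Hes1 (-0.70, limma adjusted p = 0.00115) were lower in LC-HFD. Also lower were Rbpj (-0.67, with 3 probe sets over -0.74 to -0.14) and Dll4 (-0.28, and -0.83 on its other probe set). Nrarp lost its call under the methods' t-test and with the 3′ minus 5′ covariate. Hey1 (-0.34), Hey2 (-0.28), Heyl (-0.19) and Hes5 (0.13), of the same families as Hes1, did not pass. Of the receptors, Notch3 passed as higher (0.59, limma adjusted p = 0.00254, and 1.09 on its other probe set). Notch1 (0.20), Notch2 (-0.16) and Notch4 (-0.07) did not pass on their brightest probe sets, and their other probe sets reached differences of 0.70 for Notch1, 0.58 for Notch2 and 0.24 for Notch4.

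Of 11 genes of preadipocytes and adipocytes 3 were higher and 3 lower, with a median of 0.13. Cebpa, a driver of fat cell formation, was higher by 0.56. Fabp4 was higher by 0.32, with its 4 probe sets over -0.67 to 0.32. Cebpd, which acts before Cebpa, was lower (-0.84). Pdgfra (-0.49, with 3 probe sets over -0.72 to -0.49) and Cebpb (-0.47) were also lower, while Pparg (-0.17) did not pass. Adipoq, a product of mature fat cells, passed as higher at 3.32 ± 0.193 in LC-HFD, against 2.62 ± 0.307 in LC-RD, both below the array medians, and lost its call without LC-HFD replicate 2 or 3 or LC-RD replicate 1 or 3. Of 18 genes that handle or answer thyroid hormone (median 0.14) 1 was higher, the deiodinase Dio1, at 3.02 ± 0.215 in LC-HFD, against 2.47 ± 0.138 in LC-RD. The transporter Slc16a10 was lower (-0.33, with 4 probe sets over -0.33 to 0.24). Dio1 lost its call without LC-RD replicate 1 or 2, and Slc16a10 without LC-RD replicate 2 or 3. Of 9 Gag-derived genes like Rtl1 (median 0.26) 1 was higher (Pnma2, 0.58). Of 13 genes that process or use microRNAs (median 0.04) 3 were higher and 2 lower, none by more than 0.45. Of 20 long noncoding RNAs (median 0.05) 4 were higher and 5 lower. Those higher were Airn (0.71, with 5 probe sets over -0.97 to 1.09), Dleu2 (0.54, with 3 over -0.63 to 0.54), Snhg12 (0.53) and Snhg1 (0.40). Snhg11 (-1.19) and Mir22hg (-0.60) were among the lower ones, and Neat1 (-0.04) did not pass. Malat1 did not pass on its brightest probe set (0.14), but its 7 probe sets ranged over -1.98 to 0.76.

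**Figure D4:**
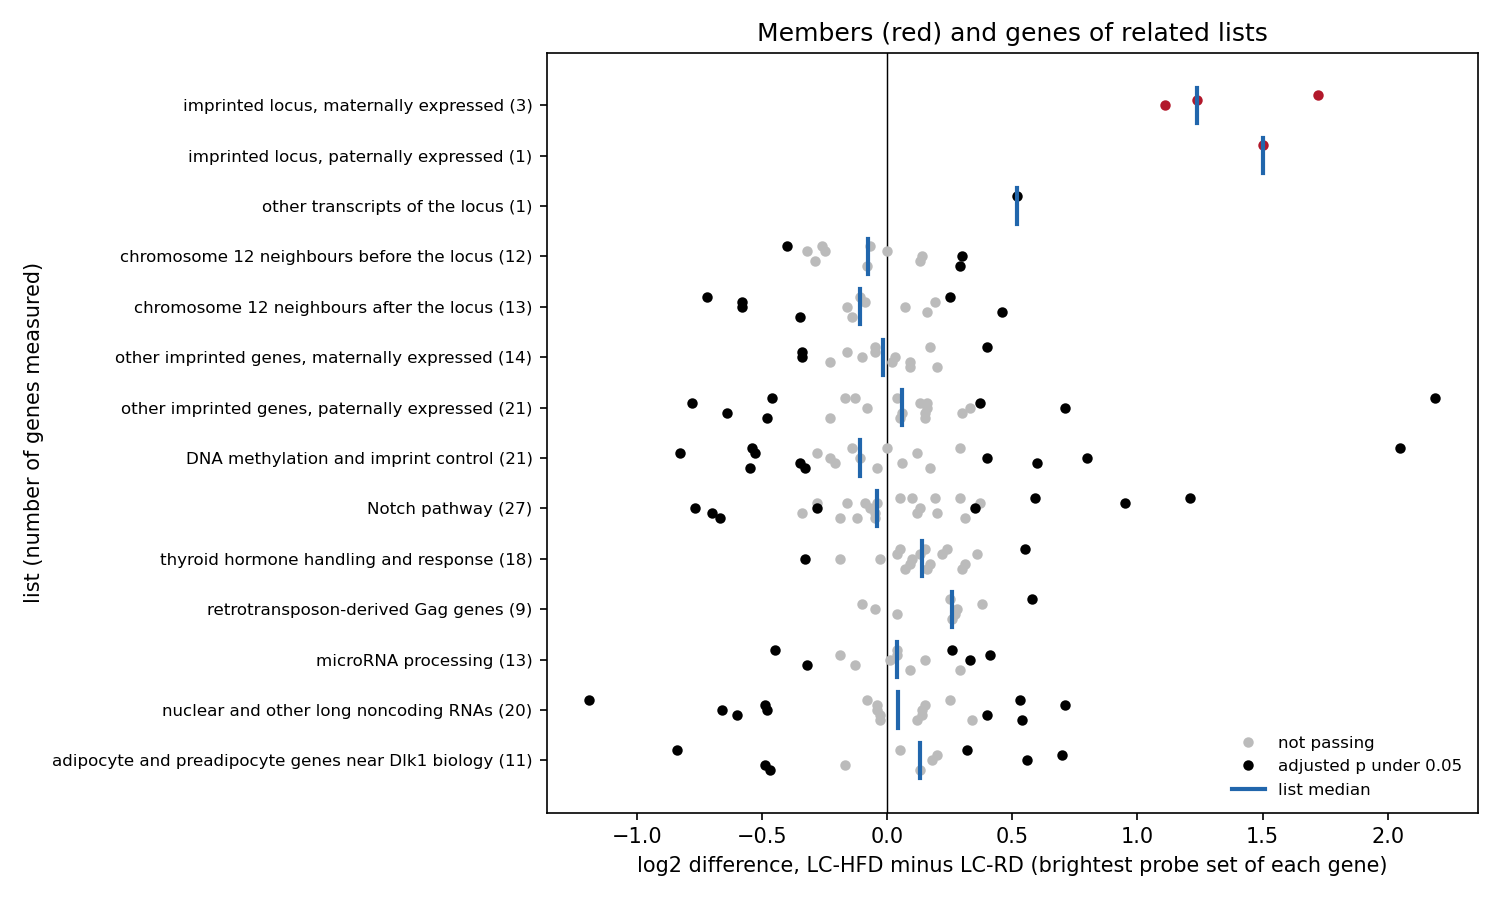
Log2 difference (LC-HFD minus LC-RD) of each gene on its brightest probe set, by list, with members in red, other genes past an adjusted p of 0.05 in black, others in gray and the list median as a blue line. Outside the members the largest increases are Nnat (2.19) and Zfp57 (2.05), and the list medians lie between -0.11 and 0.52.

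Markers of cell types were read beside these values. The labels give lung, and alveolar type II, alveolar type I and club cell markers were far above the array medians, with mean log2 levels of 12.69 to 12.75, 11.06 to 11.09 and 11.21 to 11.25 in LC-HFD arrays, against 12.62 to 12.68, 11.08 to 11.12 and 11.25 to 11.28 in LC-RD arrays. Of 5 alveolar type II markers 1 was higher and 0 lower, and of 6 alveolar type I markers 1 and 1. Of 4 club cell markers 1 was higher (Scgb3a1, 0.75) and 2 lower (Scgb3a2, -0.53, and Cyp2f2, -0.29). Of 8 pericyte and smooth muscle markers 3 were higher and 0 lower. Rgs5 (2.17), Cspg4 (0.66) and Notch3 (0.59), genes of pericytes, passed as higher in LC-HFD. Pdgfrb (-0.13) and the smooth muscle genes Acta2 (-0.00), Tagln (-0.07), Myh11 (0.02) and Cnn1 (0.21) did not pass. The mean level of the list was 7.43 to 7.54 in LC-HFD arrays and 7.00 to 7.07 in LC-RD arrays. Of 8 endothelial markers 3 were higher and 2 lower (8.17 to 8.29 in LC-HFD and 8.00 to 8.07 in LC-RD). Of 8 fibroblast markers 1 was higher and 4 lower (8.66 to 8.74 in LC-HFD and 8.85 to 8.87 in LC-RD). Adipocyte markers read 3.49 to 3.64 in LC-HFD and 3.06 to 3.33 in LC-RD, neuroendocrine markers 3.58 to 3.73 in LC-HFD and 3.33 to 3.45 in LC-RD, and cardiac muscle markers 4.12 to 4.22 in LC-HFD and 4.50 to 4.72 in LC-RD, each under the array medians. Of 6 macrophage markers 2 were higher and 0 lower (9.55 to 9.57 in LC-HFD and 9.36 to 9.40 in LC-RD), and of 5 mesothelial markers 1 was higher and 3 lower (6.45 to 6.67 in LC-HFD and 6.75 to 6.85 in LC-RD). Neuronal markers (3.82 to 3.89 in LC-HFD and 3.75 to 3.93 in LC-RD) and skeletal muscle markers (3.23 to 3.61 in LC-HFD and 3.28 to 3.41 in LC-RD) overlapped between the groups. Of 4 adipocyte markers 2 were higher and 0 lower, of 6 neuroendocrine markers 2 and 0, and of 6 cardiac muscle markers 0 and 3. Of 6 neuronal markers 0 were higher and 1 lower, and of 6 skeletal muscle markers 1 and 0. The part of any of these cell types in the values of the locus was not tested.

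Array controls also differed between the groups. Spiked hybridization controls read 11.49 to 11.53 on LC-HFD arrays and 10.01 to 10.04 on LC-RD arrays. Poly-A controls went the other way, with 5.99 to 6.06 on LC-HFD arrays and 6.33 to 6.42 on LC-RD arrays. The 18S ribosomal probe sets read 7.57 to 7.69 on LC-HFD arrays and 12.51 to 12.54 on LC-RD arrays. The 3′ over 5′ log2 signal of control transcripts, a sign of RNA length, was 1.58 to 1.70 on LC-HFD arrays and 1.70 to 1.76 on LC-RD arrays. Handling of the 2 groups of arrays and diet cannot be told apart. With this signal in the fit, 13 of the 19 members passed as higher, beside 3.48% of all probe sets. Rian 1427580_a_at (1.04) and 1452899_at (0.97), Meg3 1436057_at, 1429257_at and 1429256_at, and Dlk1 1442724_at did not.

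The genes most like Meg3 across the 6 arrays were sought with Pearson's r against its brightest probe set, 1439380_x_at, where the mean log2 value reached 6. Of other genes, Wiz (0.9997), Oas1a, Kng1, Prkaca (each 0.9996) and Erdr1 (0.9994) came first. Each was higher in LC-HFD, by 0.99 to 1.93. With 2 tight groups of 3 arrays an r near 1 is common, and 322 of 14382 probe sets (2.24%) reached 0.99. After the group means were subtracted the order changed to Ipo5 (0.9981), Vamp3, Wdr11, Mal and Rnf214 (0.9921). None of the 5 differed by more than 0.25 between the groups. On that measure Meg3 1452183_a_at reached 0.69 and Rian 1427580_a_at 0.64, ranks 1490 and 1884 of 14382, as a description over 6 arrays. The other Meg3 probe sets ranked reached 0.43, 0.40, 0.15 and -0.16 (rank 8003), and Rian 1452899_at reached 0.05. The reference probe set varied little within groups (SD 0.0247 in LC-HFD and 0.00984 in LC-RD), so these r rest on small deviations.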

How the data were processed

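RNA from whole lungs, 3 of LC-HFD and 3 of LC-RD, was labelled with biotin and hybridized to 1 array for each mouse. The authors deposited 1 table of log2 values per probe set and array, made with GCRMA per the submitters' processing notes (version not given in the sources used here). GCRMA shrinks dim signals toward background, so differences of dim probe sets can be understated. The groups in the labels, HFD+Dox and RD+Dox, are called LC-HFD and LC-RD here. The labels call the samples replicates, and the methods describe separate lungs.

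The 64 control probe sets were set aside and the other 45037 were fitted with limma 3.58.1 in R 4.3.3 (lmFit and eBayes, group only, two-sided), with Benjamini-Hochberg adjustment over all of them. A call needed an adjusted p under 0.05, and where stated also a change over 2-fold. Genes come from the platform's annotation, with symbols updated through RefSeq, and 34945 probe sets have exactly 1 gene. A gene of several probe sets is read from the one with the highest mean, unless stated. The members and lists were chosen with earlier results of these data known. Text names all member probe sets and the 5 genes most like Meg3. Of each list it names genes taken from the 4 largest changes that passed. Others in the lists were chosen after values were seen, for their role (such as Trim28) or to complete the calls of a list (such as Rbpj). Cell type lists were summarized by mean level and by calls on brightest probe sets. Same-numbered arrays did not deviate together (correlations -0.04, -0.09 and -0.03), so no block was used. Motifs were searched on both strands. No column was left unused. The fit was tested on simulated data. Precision is limited by 3 arrays per group. Alternatives were the methods' t-test, quantile normalization, array weights, median centring, a trended robust variance, minimum means of 4 and 6, a replicate block, the 3′ minus 5′ covariate and each array left out. Figures were drawn with Python 3.11.15 and matplotlib 3.10.9.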

Additional observations from a re-analysis of the deposited data

How the results depend on the processing

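Direction held for all 19 member probe sets under every alternative that tested them. The count of members passing, 18 in the fit as reported, was 15 under the methods' t-test, 17 with an intensity trend and robust variance, 18 with array weights, 17 after quantile normalization, 18 after median centring, 13 with the 3′ minus 5′ covariate, 15 of 16 tested at a mean of at least 4, and 16 to 19 with 1 array left out. Over 2-fold it was 11 to 13 there, and 12 to 14 with 1 array left out. At a mean of at least 6 only 8 members were tested, of which 8 passed and 6 were over 2-fold. Read by gene, 4 of 4 passed in the fit as reported, 3 with the covariate and 2, the only ones tested, at a mean of at least 6. The noncoding minus Dlk1 difference of 0.29 was -0.14 on brightest probe sets and -0.18 at a mean of at least 4, where fewer probe sets enter, and 0.23 to 0.34 with 1 array left out. The list counts (28 higher and 32 lower) were 11 higher and 10 lower with the covariate, and 18 to 26 higher and 16 to 31 lower with 1 array left out, lowest without LC-RD replicate 1 (18 higher, 18 lower) or LC-RD replicate 2 (19 higher, 16 lower). The cause was not tested. Of 38 other genes with a call, none reversed, and 77 of 555 alternative values lost the call, among them none for Nnat, Zfp57, Tet3, Lfng, Hes1 or Rgs5. With the covariate, calls were lost for Dio3os, Wdr20, Ppp2r5c, Igf2r, Peg3, Dnmt3l, Dnmt3a, Smchd1, Rcor1 and Pnma2, among others. With the replicate number as a block 17 members passed, and the lists gave 21 higher and 21 lower, though the numbers do not pair the arrays. In LC-RD, mean values below the array medians covered all Mirg and Dlk1 probe sets. They also covered Rian 1440001_at and 1428055_at, and Meg3 1452906_at, 1428764_at, 1428765_at and 1429256_at. Mirg 1440097_at, Dlk1 1442724_at, Rian 1428055_at and Meg3 1429256_at were below the medians in LC-HFD too. Such values limit how exactly a fold can be given.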
